A study of Homo sapiens with 12 samples.

Results

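The genes of the mitochondrial ribosome were examined in HL60 cells by RNA-Seq. Genes were taken by symbol, as MRPL or MRPS followed by a number and, in some, a letter (hereafter MRP genes), which gave 78 of the 59251 genes in the count table. Of these, 49 carry MRPL symbols for the large subunit and 29 carry MRPS symbols for the small subunit. HL60 is an established human myeloid leukemia line, and all groups are cultures of this 1 line. The cells were left non-treated, or received 1 µM all-trans retinoic acid (ATRA), 1 µM of palbociclib, an inhibitor of the cell cycle kinases CDK4 and CDK6 (CDK4/6i), or both (CDK4/6i+ATRA). RNA was taken 48 h after treatment, and no culture time is given for the non-treated cells. There were 3 samples per group, 12 libraries in all, labelled as biological replicates. P-values measure the spread between these samples of 1 line.

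Mitochondria carry their own small genome, and its messenger RNAs for subunits of the respiratory chain and the ATP synthase are translated inside the organelle by the mitochondrial ribosome. All proteins of that ribosome are encoded in the nucleus, made in the cytosol and imported. The small subunit holds the messenger RNA and decodes it, and the large subunit forms the peptide bond and passes the chain through its exit tunnel to the inner membrane. Many of these proteins have counterparts in bacterial ribosomes, and the others are found in mitochondria alone.

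By total count the CDK4/6i+ATRA libraries were the shallowest, at 12230923 to 14415276, and the other 9 libraries held between 15238994 and 18679544 counts. The myeloid genes CD33, SPI1, LYZ and CEBPE were present in every library. MPO, the myeloperoxidase of azurophil granules, stood at 104456 to 112496 counts in non-treated cells and at 275 to 410 with CDK4/6i+ATRA. ELANE, PRTN3 and AZU1, other granule genes of HL60, were listed at 0 in every library. These 3 genes are also listed on an alternate contig of the genome. Among markers of other cell types, HBB and EPCAM were listed at 0, and COL1A1 had at most 4 counts per library. CD3E had 6 to 59 counts and PECAM1 157 to 565, both lowest with CDK4/6i+ATRA, and their part in the results was not tested.

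CPM, counts scaled to a common library total, were normalized by the TMM method, which assumes that most genes do not change between libraries. The quasi-likelihood test of edgeR was fitted to all 13318 genes that passed the expression filter, and a gene was called lower or higher at a Benjamini-Hochberg adjusted p-value under 0.05. The filter kept 76 of the 78 MRP genes. MRPS24 and MRPS18B did not pass. MRPS24 shares its exons with the readthrough gene URGCP-MRPS24, and MRPS18B is also listed on 6 alternate contigs of the histocompatibility region. MRPS18B had a mean of 0.881 TPM (counts per base of exon, scaled to a common total) in non-treated cells, and both genes enter below only the share of all counts, the summed TPM and the promoter windows. In RNA from whole cultures, fewer cells of a kind and less RNA per cell cannot be told apart.

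With ATRA, 67 of the 76 MRP genes were called lower than in non-treated cells and 2 higher, where 35.5% of all genes tested were lower and 32.1% higher. The median log2 fold change of the MRP genes was -0.46, and that of all genes was -0.03. The changes ran from -1.55 for MRPS26 to 1.75 for MRPS6, and MRPL53 was the other gene called higher. The fall was largest in MRPS26 and MRPS2, the latter a counterpart of a bacterial protein of the small subunit, with a log2 fold change of -1.37 ± 0.07 (SE, edgeR adjusted p = 6.0e-23).

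With CDK4/6i, the MRP genes moved less. Of the 76, 38 were called lower and 11 higher, beside 27.9% and 28.3% of all genes, and the median log2 fold change was -0.15 against 0.02 for all genes. The lowest were MRPL39 and MRPL49, both proteins found in mitochondrial ribosomes alone. MRPL39 stood at 32.6, 30.3 and 28.9 CPM in non-treated cells and at 21.0, 19.7 and 17.3 CPM with CDK4/6i, without overlap, and its log2 fold change was -0.66 ± 0.08 (SE, edgeR adjusted p = 5.6e-10). MRPL49 changed by -0.61 ± 0.05 on the same scale. The highest were MRPL45, which tethers the ribosome to the inner membrane, at 0.37 ± 0.07, and MRPL10, the base of the ribosomal stalk, at 0.34 ± 0.06. These 2 genes were lower with ATRA and higher with CDK4/6i.

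With CDK4/6i+ATRA, 61 of the 76 MRP genes were called lower than in non-treated cells and 5 higher, where 40.7% of all genes were lower and 41% higher. The median log2 fold change was -0.86, against 0.02 for all genes. In the same 61 genes, all CDK4/6i+ATRA libraries lay below all non-treated libraries, as they did in 40.8% of all genes. MRP genes took 0.586% ± 0.00941 of all counts in non-treated cells (SD, n = 3). That share was lowest in the combination, at 0.273% ± 0.00331, and stood at 0.534% ± 0.00478 after CDK4/6i and at 0.411% ± 0.00526 after ATRA. Of the 76 genes, 59 were called lower both with ATRA and with CDK4/6i+ATRA, as were 29.8% of all genes, and 36 were lower in each of the 3 comparisons with non-treated cells, as were 15.1% of all genes. These comparisons share the non-treated libraries.

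**Figure D1:**
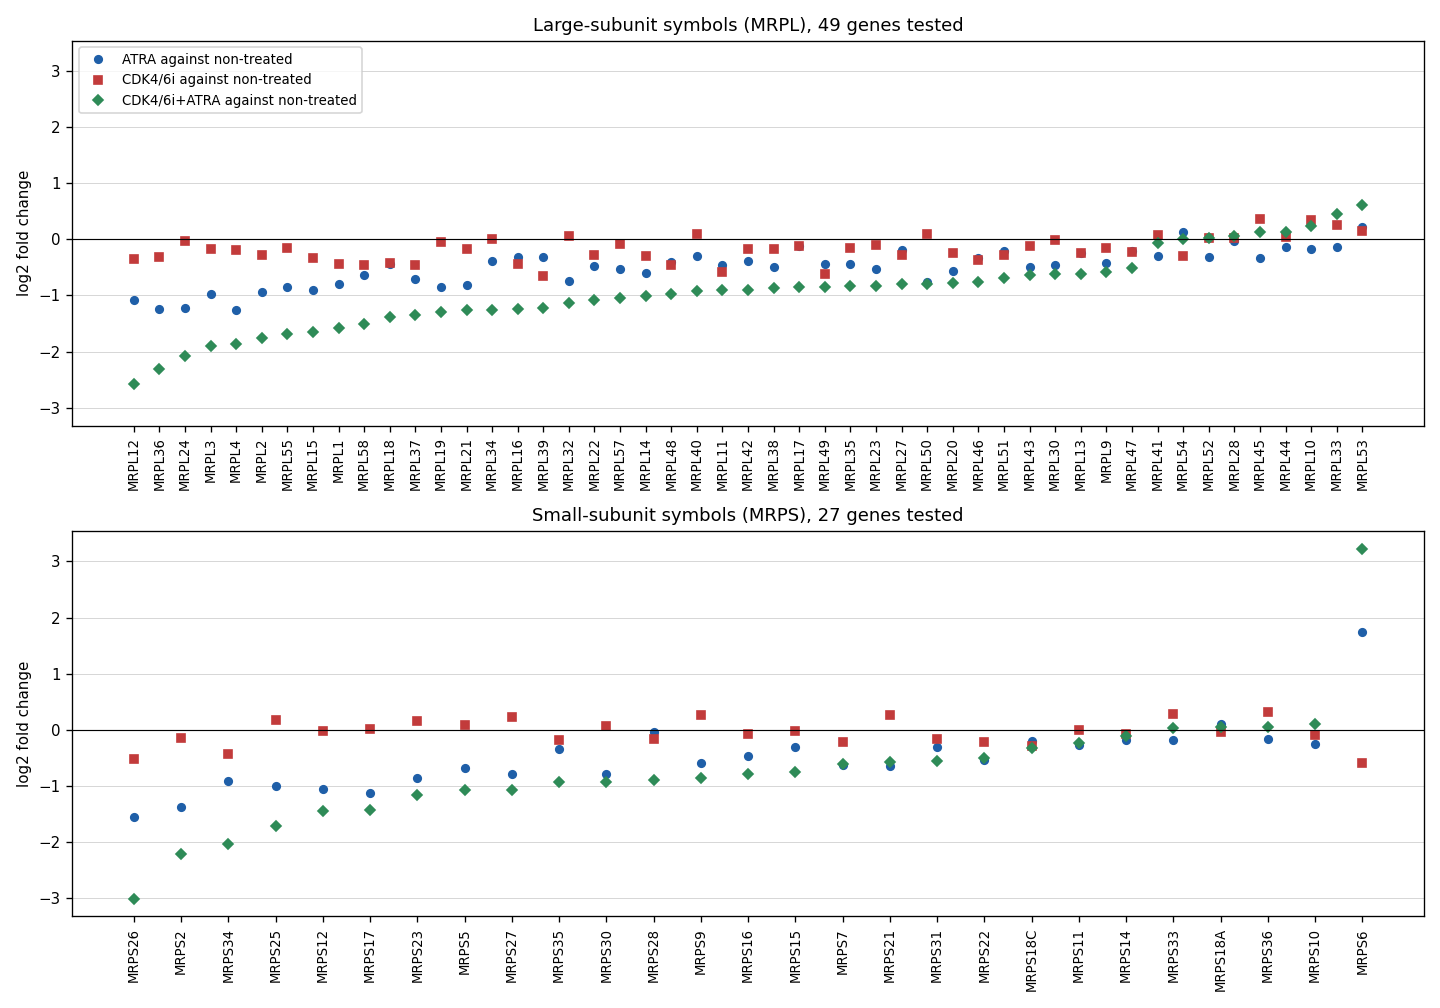
Log2 fold change (y axis) against non-treated cells of each MRP gene tested (x axis, ordered by the CDK4/6i+ATRA value), with the 49 MRPL genes above and the 27 MRPS genes below. Circles stand for ATRA, squares for CDK4/6i and diamonds for CDK4/6i+ATRA. The diamonds run from -3.01 (MRPS26) to 3.23 (MRPS6), and most lie below the circles and squares of the same gene.

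Against the single drugs, the MRP genes were also lower with CDK4/6i+ATRA. Against CDK4/6i alone, 63 were called lower and 5 higher (all genes: 39.5% and 39.1%), with a median of -0.72. Against ATRA alone, 54 were called lower and 10 higher (all genes: 32.8% and 36.9%), with a median of -0.38. A total of 54 MRP genes were called lower with CDK4/6i+ATRA than in each of the other 3 groups, as were 25.5% of all genes, in comparisons that share the CDK4/6i+ATRA libraries. These counts depend on the scale. When libraries were scaled by their total alone, the median of all genes with CDK4/6i+ATRA shifted from 0.02 to -0.25 against non-treated cells, and the share of all calls that were higher was 40.5% in place of 50.2%. On that scale 70 MRP genes were lower and 3 higher, where 48.3% of all genes were lower. Their median relative to all genes was -0.88 on both scales. Against CDK4/6i the share of all calls that were higher was 36.7% in place of 49.8%. There 71 MRP genes were lower and 2 higher, beside 49.2% of all genes lower. Against ATRA the share of higher calls was 31.6% in place of 53.0%. There 65 MRP genes were lower and 2 higher, beside 48.1% of all genes lower.

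The 4 MRPL and 4 MRPS genes with the largest falls in the combination were MRPL12, MRPL36, MRPL24 and MRPL3, and MRPS26, MRPS2, MRPS34 and MRPS25. MRPS26, a small-subunit protein without a bacterial counterpart (chr20:3046052-3048250 of hg38, plus strand), stood at 72.4, 80.1 and 70.2 CPM in non-treated cells, at 23.7, 23.8 and 28.4 with ATRA, at 52.0, 50.2 and 53.5 with CDK4/6i, and at 8.80, 9.81 and 9.09 with CDK4/6i+ATRA. The 4 groups did not overlap. The combination value was 8.03-fold below non-treated cells, a log2 fold change of -3.01 ± 0.08 (SE, edgeR adjusted p = 1.9e-34).

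MRPL12 (chr17:81703367-81707517, plus strand) is the stalk protein that recruits translation factors, and it has been described as binding the mitochondrial RNA polymerase. It was the most abundant MRP gene per length in non-treated cells. Its levels were 236, 236 and 239 CPM in non-treated cells, 111, 109 and 116 with ATRA, 185, 184 and 187 with CDK4/6i, and 36.5, 42.3 and 40.3 with CDK4/6i+ATRA, again with no overlap between groups. The fall was 5.96-fold, a log2 fold change of -2.57 ± 0.05 (SE, edgeR adjusted p = 3.5e-42).

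MRPL3 (chr3:131462212-131502971, minus strand), which in bacteria lies near the peptidyl transferase centre, fell from 362, 355 and 333 CPM to 92.0, 94.7 and 96.3 CPM, with a log2 fold change of -1.89 ± 0.04 (SE). MRPL36 changed by -2.31 ± 0.10, MRPS2 by -2.22 ± 0.09, MRPL24 by -2.07 ± 0.08, MRPS34 by -2.03 ± 0.06 and MRPS25 by -1.71 ± 0.07, each called lower and with no overlap of libraries. MRPS25 was the one of these 8 that was higher with CDK4/6i alone, at 82.7, 86.6 and 83.0 CPM against 80.0, 72.3 and 71.1 in non-treated cells. The exons of MRPL3, MRPL24, MRPL36, MRPS2, MRPS25 and MRPS34 overlap those of a neighbouring gene. That of MRPL24 is HDGF on the same strand, over 610 bases, and the other 5 lie on the opposite strand. How reads in shared exons were assigned is not given in the sources used here. The exons of MRPL12 and MRPS26 overlap no other gene.

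**Figure D2:**
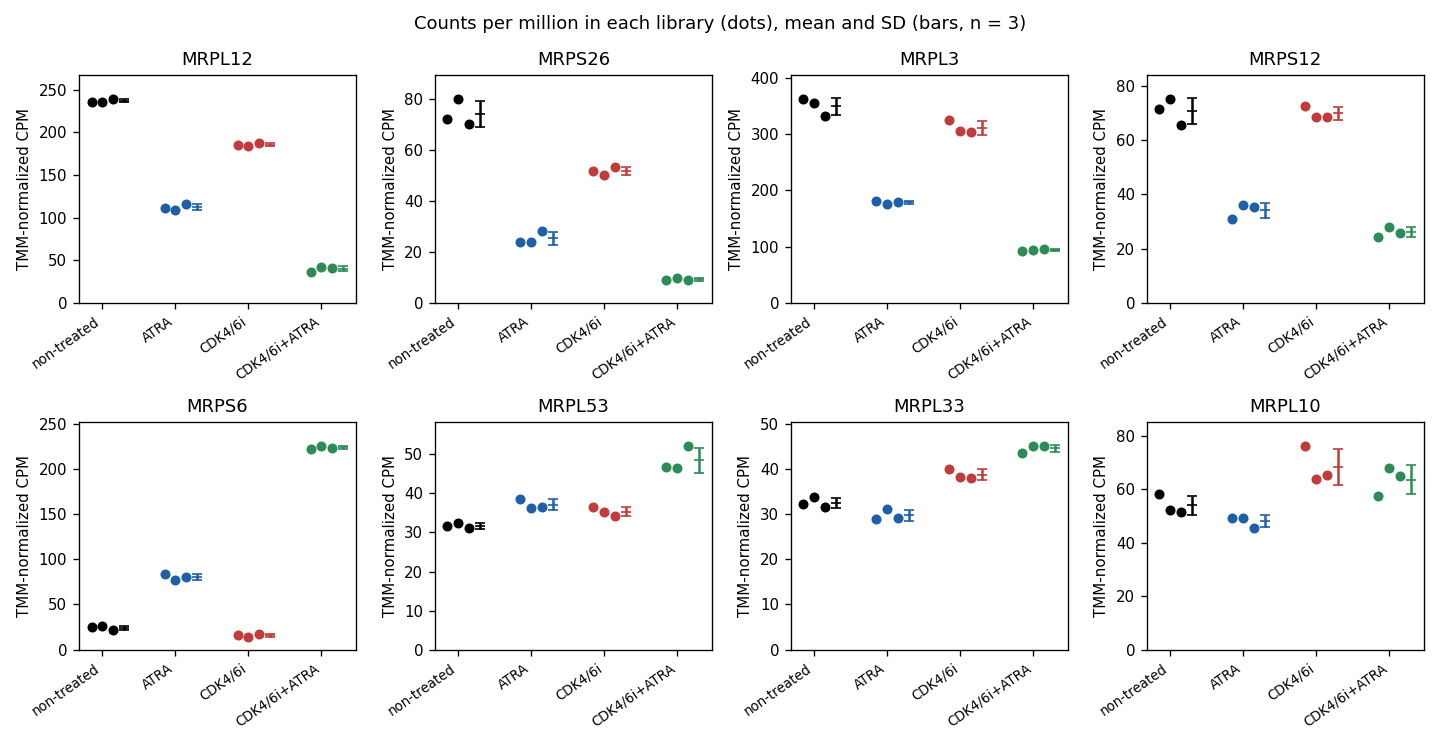
TMM-normalized CPM (y axis, from 0) of 8 MRP genes in each library (dots) of the 4 groups (x axis), with the mean and SD of each group (bars, n = 3). MRPL12, MRPS26, MRPL3 and MRPS12 (upper row) are lowest with CDK4/6i+ATRA. MRPS6, MRPL53 and MRPL33 (lower row) are highest there, and the MRPL10 libraries overlap those of other groups.

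Most genes of both subunits were lower with the combination. Of 49 MRPL genes, 40 were called lower and 3 higher, with a median log2 fold change of -0.90, and of 27 MRPS genes, 21 were lower and 2 higher, with a median of -0.79. With ATRA the counts were 44 of 49 and 23 of 27 lower, with medians of -0.44 and -0.53. With CDK4/6i they were further apart. There 29 MRPL genes were lower and 4 higher (median -0.18), while 9 MRPS genes were lower and 7 higher (median -0.03), beside 27.9% and 28.3% of all genes, which lie near the MRPS shares of 33.3% and 25.9%. The 5 genes that were higher with CDK4/6i and yet lower with CDK4/6i+ATRA all had MRPS symbols, namely MRPS9, MRPS21, MRPS23, MRPS25 and MRPS27. Those 2 comparisons share the non-treated libraries. The share of all genes with both calls is not given here, so this count is not read as a difference between subunits. No test was made of a difference between subunits, since genes are not replicates.

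The balance of the subunits was also taken within each library, as the mean log2(CPM + 0.5) of the MRPL genes less that of the MRPS genes. It was 0.11 ± 0.01 (SD, n = 3) in the combination, 0.18 ± 0.01 under CDK4/6i, 0.30 ± 0.05 under ATRA and 0.31 ± 0.01 in non-treated cells. MRPS6 alone carried much of the value in the combination. Without MRPS6, which was left out after its values were seen, the balance was 0.22 ± 0.01 in the combination, 0.11 ± 0.02 under CDK4/6i, 0.34 ± 0.05 under ATRA and 0.26 ± 0.01 in non-treated cells. The CDK4/6i libraries lay below the non-treated libraries both ways, at 0.16 to 0.19 against 0.30 to 0.31 with MRPS6 and at 0.10 to 0.13 against 0.25 to 0.27 without it. The order of CDK4/6i and CDK4/6i+ATRA turned around when MRPS6 was left out.

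**Figure D3:**
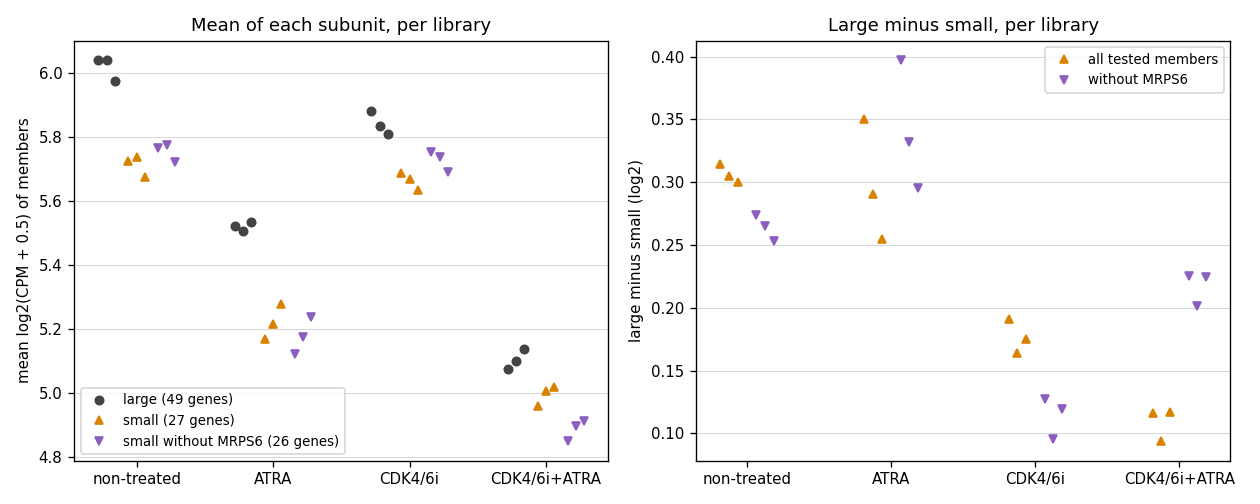
Left, mean log2(CPM + 0.5) of the 49 MRPL genes (circles), the 27 MRPS genes (upward triangles) and the 26 MRPS genes without MRPS6 (downward triangles) in each library of the 4 groups. Right, the large minus the small mean in each library, with all genes and without MRPS6; the CDK4/6i libraries lie at 0.16 to 0.19 and at 0.10 to 0.13.

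The symbols do not follow the structure in every case. MRPS30 and MRPS18A are built into the large subunit, and MRPS36 is now counted as a subunit of the 2-oxoglutarate dehydrogenase complex. Conversely, DAP3, PTCD3, AURKAIP1 and CHCHD1 are small-subunit proteins and GADD45GIP1 is a large-subunit protein with unrelated symbols. With the genes placed by structure, 42 of 52 large-subunit genes were lower with CDK4/6i+ATRA (median -0.90) and 23 of 28 small-subunit genes (median -0.82). MRPS30 stood at 91.6, 89.2 and 88.0 CPM in non-treated cells and at 49.3, 46.0 and 45.9 with the combination, a log2 fold change of -0.93 ± 0.05 (SE). GADD45GIP1 changed by -1.54 ± 0.05, PTCD3 by -1.29 ± 0.05, AURKAIP1 by -0.96 ± 0.05 and DAP3, a GTP-binding protein first described in cell death, by -0.13 ± 0.04, all called lower. CHCHD1 was at -0.05 ± 0.07 and was not called (edgeR adjusted p = 0.51).

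A total of 15 MRP genes were not lower with CDK4/6i+ATRA than in non-treated cells, 9 with MRPL and 6 with MRPS symbols. Of these, 5 were called higher (MRPS6, MRPL53, MRPL33, MRPL10 and MRPS10) and 10 were not called (MRPL28, MRPL41, MRPL44, MRPL45, MRPL52, MRPL54, MRPS14, MRPS18A, MRPS33 and MRPS36). The log2 fold changes of the latter lay between -0.10 (MRPS14) and 0.13 (MRPL44, edgeR adjusted p = 0.050). The smallest falls that were called were those of MRPS11 (-0.23), MRPS18C (-0.32) and MRPS22 (-0.50). By ancestry as classed here, 6 of the 15 have a bacterial counterpart and 8 are in the mitochondrion-specific class. That class holds MRPS18A, although its paralogue MRPS18C is in the bacterial class.

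Of the 15 genes, 8 were called lower with ATRA alone, beside 35.5% of all genes, and 6 were called higher with CDK4/6i alone, beside 28.3% of all genes. Against ATRA alone, 10 were called higher with CDK4/6i+ATRA, beside 36.9% of all genes, and no other MRP gene was called higher there. The 15 were chosen by comparing the CDK4/6i+ATRA and non-treated libraries, and each of these comparisons reuses libraries of that choice. The counts are thus partly set by the choice. MRPL52, a protein of the large subunit, is given as an example. It stood at 48.3, 46.8 and 47.0 CPM in non-treated cells, at 38.7, 38.9 and 36.4 with ATRA, at 49.5, 48.2 and 46.7 with CDK4/6i and at 45.7, 51.2 and 47.5 with CDK4/6i+ATRA, so that the ATRA libraries alone lay apart. MRPL28 overlapped between non-treated cells and every other group, with 70.0 to 76.2 CPM in non-treated cells and 74.9 to 77.0 with the combination.

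MRPL53, a protein of the large subunit without a bacterial counterpart (chr2:74471982-74472680, minus strand), was at 31.7, 32.5 and 31.0 CPM in non-treated cells, at 38.7, 36.3 and 36.5 with ATRA, at 36.6, 35.2 and 34.2 with CDK4/6i and at 46.8, 46.5 and 52.1 with CDK4/6i+ATRA. It was higher in all 3 treated groups without overlap, and with the combination the log2 fold change was 0.61 ± 0.06 (SE, edgeR adjusted p = 4.4e-12). MRPL33, counterpart of a small bacterial protein, was at 32.3, 33.7 and 31.6 CPM and rose to 43.6, 45.0 and 45.1 CPM with the combination (0.46 ± 0.06). MRPL10 (0.23 ± 0.06) and MRPS10 (0.11 ± 0.05, edgeR adjusted p = 0.042) were called higher although their libraries overlapped those of non-treated cells. The call of MRPS10 was also lost when any 1 library other than CDK4/6i replicate 1 or CDK4/6i+ATRA replicate 1 was left out (edgeR adjusted p of 0.055 to 0.32 over those 10 libraries). When libraries were scaled by their total alone, MRPS6 (2.96), MRPL53 (0.35) and MRPL33 (0.19) kept their direction and their call with smaller values, whereas MRPL10 (-0.03) and MRPS10 (-0.16) turned negative. On that scale 9 of the 15 genes were called lower, beside 48.3% of all genes, so that 6 MRP genes were not lower. The 9 were MRPS10, MRPL28, MRPL41, MRPL44, MRPL52, MRPL54, MRPS14, MRPS18A and MRPS33. MRPL10, MRPL45 and MRPS36 turned negative there and were not called.

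MRPS6, counterpart of the bacterial small-subunit protein that lies on the platform, had the largest rise of all MRP genes tested. It stood at 24.9, 25.6 and 21.3 CPM in non-treated cells, at 83.4, 76.9 and 80.2 with ATRA, at 15.8, 14.4 and 17.7 with CDK4/6i and at 223, 225 and 224 with CDK4/6i+ATRA. The 4 groups did not overlap. The rise was 9.36-fold with the combination (log2 fold change 3.23 ± 0.06 SE, edgeR adjusted p = 2.7e-43) and 1.75 ± 0.06 on the log2 scale with ATRA, while with CDK4/6i the value fell by 0.58. By TPM, MRPS6 ranked 46 of the 76 MRP genes in non-treated cells and 58 under CDK4/6i, but 5 under ATRA and 1 in the combination.

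MRPS6 lies on chromosome 21 and shares its start and first exon with SLC5A3, which encodes the sodium-dependent myo-inositol transporter. In the annotation of the count table MRPS6 has 3 exons (chr21:34073578-34073745, chr21:34125341-34125480 and chr21:34142408-34143030, plus strand). SLC5A3 has 2, the same first exon of 168 bases and a last exon of 11398 bases within the first intron of MRPS6 (chr21:34094863-34106260). SLC5A3 moved with MRPS6, at 14.7, 15.1 and 15.5 CPM in non-treated cells, 123, 113 and 108 with ATRA, 16.5, 17.0 and 14.9 with CDK4/6i and 472, 445 and 445 with CDK4/6i+ATRA. With the combination its log2 fold change was 4.91 ± 0.05 (SE, edgeR adjusted p = 1.3e-51). With CDK4/6i alone the neighbours differed, since SLC5A3 was not called (0.10 ± 0.08) and MRPS6 was lower. The table holds 1 count per gene, so reads of the shared exon could not be separated from those of the other exons, and their part in the MRPS6 counts was not tested.

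**Figure D4:**
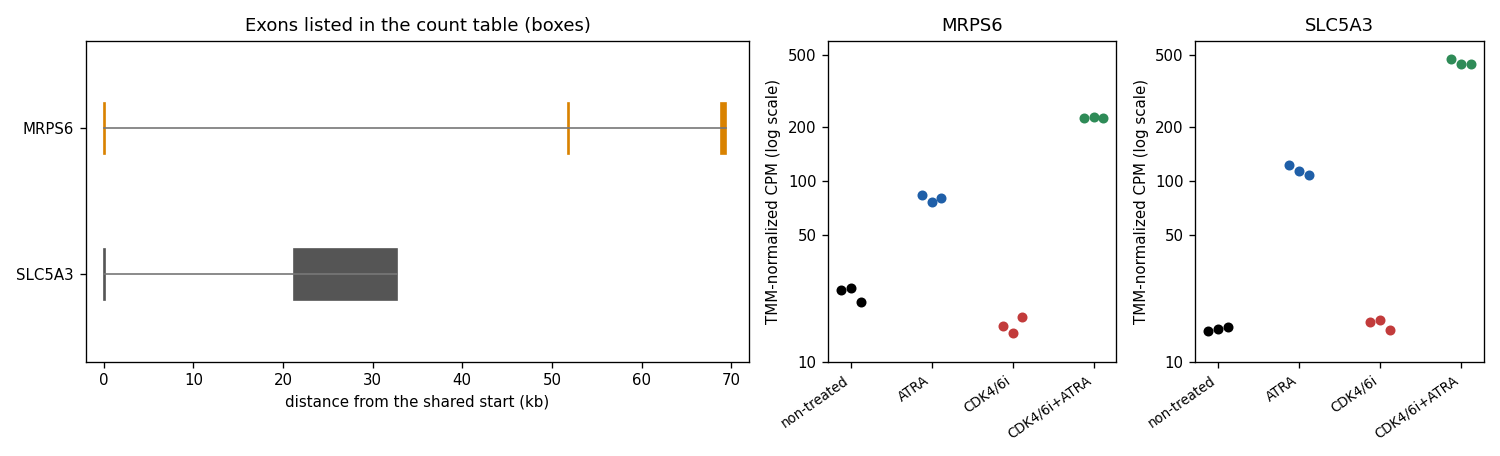
Left, exons (boxes) of MRPS6 and SLC5A3 as listed in the count table, by distance from their shared start in kb (x axis). Middle and right, TMM-normalized CPM (log axis) of each library in the 4 groups; with CDK4/6i+ATRA the libraries lie at 223 to 225 for MRPS6 and at 445 to 472 for SLC5A3.

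The effect of ATRA was next compared in the absence and the presence of CDK4/6i, 2 contrasts that share no library. Of the 76 MRP genes, 61 were called lower with ATRA in both settings, as were 29.4% of all genes, and 57 had the lower log2 fold change in the presence of CDK4/6i, as did 51.5% of all genes. Across the MRP genes the 2 sets of values had a Pearson's r of 0.94 (0.91 without MRPS6, and 0.84 over all 13318 genes), a description across genes that share libraries and normalization. The difference between them was tested as the interaction, the log2 change by ATRA with CDK4/6i less that without it. It was called negative in 42 MRP genes and positive in 9, beside 27% and 24.5% of all genes, with a median of -0.22 against -0.02. All 42 with a negative interaction were also lower with the combination than in non-treated cells. Those 2 contrasts share libraries, and the share of all genes with both calls is not given here, so the overlap is a description only.

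The interaction was most negative in MRPL12 (-1.14 ± 0.06 SE, edgeR adjusted p = 6.3e-21), MRPS26 (-0.94 ± 0.12) and MRPS25 (-0.89 ± 0.09). In MRPL12, ATRA changed the level by -1.08 without CDK4/6i and by -2.22 with it. The interaction was most positive in MRPS6 (2.06 ± 0.09, edgeR adjusted p = 4.6e-25), MRPS10 (0.44 ± 0.07) and MRPL33 (0.33 ± 0.09). In MRPS10, ATRA changed the level by -0.24 without and by 0.20 with CDK4/6i. Of the genes lower with the combination, MRPL49, MRPS7 and MRPS22 had a positive interaction and 16 had none that was called. The interaction was the measure most open to the scale. With libraries scaled by their total alone, the median of all genes shifted to -0.34, and the positive share of all calls was 18.5% in place of 47.5%. There 61 MRP genes were negative and 1 positive, beside 45.5% of all genes negative.

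**Figure D5:**
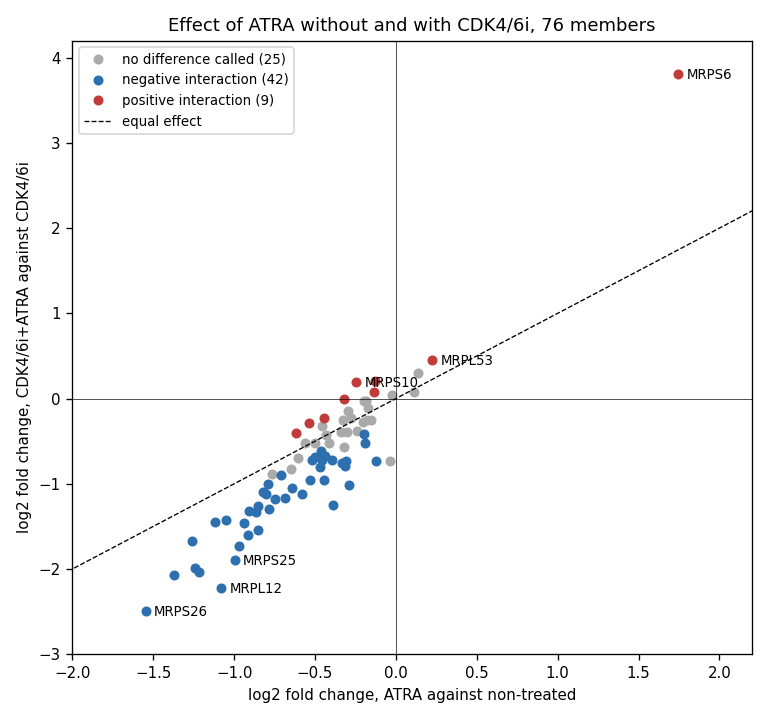
Log2 fold change of each of the 76 MRP genes with ATRA against non-treated cells (x axis) and with CDK4/6i+ATRA against CDK4/6i (y axis). The dashed line marks an equal effect, and colours mark the interaction call; 42 genes called negative lie below the line and 9 called positive above it, with MRPS6 at 1.75 and 3.81.

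The genes were also grouped by ancestry and by their place in the ribosome, and the counts stand beside 40.7% of all genes lower and 41% higher. Of 45 genes classed as having bacterial counterparts, 39 were lower and 4 higher with CDK4/6i+ATRA (median -0.89). Of 30 classed as mitochondrion-specific, MRPS18A among them, 22 were lower and 1 higher (median -0.85). In the central protuberance, the lobe of the large subunit above the tRNA sites, 6 of 7 genes were lower. Around the peptide tunnel and its exit, 6 of 7 were lower, and MRPL45 was the exception. In the conserved body and platform of the small subunit, 8 of 9 were lower and MRPS6 was higher. In its head, 2 of the 4 genes tested were lower (MRPS7 and MRPS9), 1 was higher (MRPS10) and MRPS14 was not called, a share near that of all genes.

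The genes of the stalk diverged. MRPL12 was lower (-2.57), as was MRPL11, which binds beside it at the GTPase centre, from 115, 106 and 101 CPM in non-treated cells to 51.7, 56.8 and 63.7 with the combination (-0.90 ± 0.06 SE). MRPL10, which anchors MRPL12, was at 58.2, 52.4 and 51.7 CPM in non-treated cells and at 57.7, 68.2 and 65.0 with the combination. Of the other genes chosen by role, MRPS12 of the decoding centre fell from 71.4, 75.0 and 65.6 CPM to 24.2, 27.9 and 25.7 CPM (-1.44 ± 0.07). MRPL58, a peptidyl-tRNA hydrolase that frees stalled ribosomes, changed by -1.51 ± 0.07 and MRPS27, an RNA-binding protein with pentatricopeptide repeats, by -1.06 ± 0.06. Among the MRPS18 paralogues, MRPS18C was lower (-0.32 ± 0.08) and MRPS18A was not called (0.05 ± 0.09). The exons of MRPS18C (1550 bases) overlap those of ABRAXAS1 on the opposite strand over 1296 bases. Those of MRPS18A overlap RSPH9 on the opposite strand over 705 bases. The part of such reads in these values was not tested.

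Levels were compared between genes by TPM. In non-treated cells MRPL12 (595 TPM), MRPL3 (520) and MRPS15 (329) were the highest. With CDK4/6i+ATRA the highest were MRPS6 (454 TPM), MRPL53 (184) and MRPL41 (168). Genes above 100 TPM numbered 32 in non-treated cells, 30 under CDK4/6i, 24 under ATRA and 11 in the combination. The summed level of the 78 genes was 9029 ± 180 TPM (SD, n = 3) in non-treated cells, and the mean with the combination was 45.5% of it, or 40.8% without MRPS6. For the large subunit the figure was 41.1%, and for the small subunit 56.9%, or 40.0% without MRPS6. On the TPM scale MRPL53 rose less than by CPM, from a mean of 162 to 184, and MRPL33 was at 162 and 166. The order of the groups also differed from that by CPM. By TPM, MRPL53 was highest with ATRA (191 to 204, against 174 to 190 with the combination). MRPL33 was highest with CDK4/6i (183 to 187, against 160 to 172 with the combination).

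The promoters were taken from RefSeq (GRCh38.p14), as windows of 250 bases before to 50 bases after each annotated start. Windows were listed for 69 of the 78 genes, 85 in all. The 200 bases before the start are shown for the most extreme genes of each direction, MRPL12 (chr17:81703167-81703366, plus strand) and MRPS26 (chr20:3045852-3046051, plus strand) with the largest falls of each subunit, MRPL53 (chr2:74472681-74472880, minus strand) with the largest rise of the large subunit, and MRPS6 (chr21:34073378-34073577, plus strand), whose window is identical to that of SLC5A3. Capitals mark matches, on either strand, to the motifs given after them.
MRPL12: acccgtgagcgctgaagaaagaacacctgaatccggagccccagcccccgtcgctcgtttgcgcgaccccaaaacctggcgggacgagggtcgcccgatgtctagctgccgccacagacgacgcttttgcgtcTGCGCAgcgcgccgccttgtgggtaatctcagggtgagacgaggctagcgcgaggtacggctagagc
MRPS26: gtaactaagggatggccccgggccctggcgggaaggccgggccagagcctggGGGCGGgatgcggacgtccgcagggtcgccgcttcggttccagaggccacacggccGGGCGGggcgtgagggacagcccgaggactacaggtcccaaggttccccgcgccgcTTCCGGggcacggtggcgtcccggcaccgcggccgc
MRPL53: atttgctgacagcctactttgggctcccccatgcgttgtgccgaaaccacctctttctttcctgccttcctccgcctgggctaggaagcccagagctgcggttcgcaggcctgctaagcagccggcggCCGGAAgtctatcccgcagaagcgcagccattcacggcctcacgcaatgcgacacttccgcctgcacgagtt
MRPS6: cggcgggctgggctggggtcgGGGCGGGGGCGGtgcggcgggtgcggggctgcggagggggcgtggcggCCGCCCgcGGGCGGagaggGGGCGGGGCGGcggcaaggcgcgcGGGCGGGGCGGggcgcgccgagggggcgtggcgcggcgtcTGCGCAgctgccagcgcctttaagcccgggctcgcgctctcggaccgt

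In these stretches MRPL12 holds 1 NRF1 half-site (TGCGCA), at positions -67 to -62 from the start. MRPS26 holds 1 ETS core (CCGGAA) and 2 GC boxes (GGGCGG), and MRPL53 holds 1 ETS core. MRPS6 holds 8 GC boxes and 1 NRF1 half-site and no ETS core. Over all 85 windows, the ETS core was present in 54.1%, against 17.2% of the 35116 windows in the table and 27.8% of the windows of all genes tested. The YY1 core (ATGGCGG) was present in 29.4%, against 5.55% and 9.71%, and the NRF1 half-site in 17 of the 85 windows, against 8.24% and 12.4% of those sets. The E-box (CACGTG) was present in 10.6% (7.26% and 9.59%), the CCAAT box in 32.9% (34.6% and 34.9%) and the GC box in 60.0% (45.0% and 64.5%). Matches of different motifs shared bases in 1 of the 85 windows. Of 76 ETS core matches, 62 began within 100 bases before the start or after it, as did 23 of 26 YY1 core matches.

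The promoters of genes that fell were set beside the 14 windows of genes that were not lower, with no test. The ETS core was present in 52.2% of 69 windows of genes lower with CDK4/6i+ATRA and in 64.3% of 14 windows of genes not lower, and the YY1 core in 27.5% and 28.6%. The E-box, bound by MYC and related factors, was present in 10.1% and 14.3%, and the NRF1 half-site in 18.8% and 21.4%. The GC box was present in 56.5% and 78.6%, and the CCAAT box in 34.8% and 28.6%. A match is a description of the sequence, and binding was not measured in these data.

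Other genes of mitochondrial translation were mostly lower as well. Of 10 genes for initiation, elongation, termination and recycling, 8 were lower and 2 higher with CDK4/6i+ATRA (median -0.58), where 40.7% of all genes were lower and 41% higher. They ran from MTRFR, a rescue factor, at -2.09 ± 0.14 (SE) to the initiation factor MTIF3 at 0.66 ± 0.08. The exons of both overlap a gene on the opposite strand, MPHOSPH9 over 67 bases for MTRFR and GTF3A over 181 bases for MTIF3. Of 24 genes for ribosomal RNA modification and assembly, 19 were lower and 1 higher (median -0.80). RBFA, which assists maturation of the small subunit, had the largest fall, from 34.8, 36.4 and 39.8 CPM to 3.12, 2.59 and 1.98 CPM (-3.86 ± 0.13, edgeR adjusted p = 1.8e-31). YBEY, an endoribonuclease of the same process, was the gene called higher, at 1.48 ± 0.19. Of 7 genes for mitochondrial transcription (POLRMT, TFAM and TFB2M), messenger RNA stability and delivery to the membrane, 6 were lower and OXA1L, the membrane insertase that binds the mitochondrial ribosome, was called higher (0.25 ± 0.05), though not when libraries were scaled by their total alone (-0.01). LRPPRC, which stabilizes mitochondrial messenger RNAs, fell from 806, 834 and 803 CPM to 209, 208 and 218 CPM (-1.94 ± 0.04).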

How the data were processed

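RNA-Seq was performed by the authors on 3 libraries each of HL60 cells without drug, or treated for 48 h with CDK4/6i (1 µM), ATRA (1 µM) or both. No culture time is given for the non-treated cells. Per the labels and the study's methods, reads were trimmed with Trimmomatic 0.33 and aligned to hg38 with STAR 2.7.11a under the NCBI RefSeq annotation. The deposited values are raw counts per gene, whole numbers without normalization, from a directional library kit. Whether reads were counted by strand is not given in the sources used here, and 26 of the 78 genes overlap the exons of another gene. The methods name RSEM as the counter, whereas the table has the layout of featureCounts. Libraries held 12230923 to 18679544 counts. The SE values come from the edgeR fit and, like the SD over 3 libraries, include the spread between samples.

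The counts were analysed as deposited, with groups taken from the labels. Genes were filtered with filterByExpr (13318 kept of 59251, of which 31154 had no count), normalized with TMM and fitted with edgeR 4.0.16 (R 4.3.3) over the 4 groups. The quasi-likelihood test was two-sided. Its p-values were adjusted over the 13318 genes by the Benjamini-Hochberg method, and the threshold was 0.05. The tests were run on simulated counts before use. TPM used exon lengths on the primary chromosomes, with a pseudocount of 0.5 for log2 CPM. The members and lists were chosen with earlier results of these data known. Genes named with values were those not lower with CDK4/6i+ATRA, the 4 largest falls of each subunit, the 3 highest and 3 lowest interactions, the 2 largest changes each way with either drug alone, a set chosen by role, and the largest change each way in the lists of other mitochondrial translation genes. MRPS7, MRPS9, MRPS11, MRPS15, MRPS21, MRPS22, MRPS23 and SLC5A3 were named after their values were seen.

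Alternatives were subunits by structure, lists without overlapping genes or without genes on alternate contigs, a replicate block, a fit of the groups compared alone, no expression filter, a minimum of 10 counts in each library, scaling by library totals, scaling by the size factors of DESeq2 1.42.0, and its own test. Each library was also left out in turn. The list without MRPS6, the fit of only the groups compared for single genes and the alternatives for SLC5A3, the other genes named after their values were seen and those of the translation lists were added after the data were seen. Of the markers of other cell types, 1 is not reported here. Replicate numbers did not pair the samples. Tables were handled with pandas 2.3.3 and numpy 2.4.6 (python 3.11.15), and matplotlib 3.10.9 drew the plots.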

Additional observations from a re-analysis of the deposited data

Results flagged for a closer look

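For the genes below, among those named above with a value, the effect of ATRA in the absence of CDK4/6i differed from that in its presence by a test of the difference itself, the interaction in the edgeR fit with Benjamini-Hochberg adjustment over all genes. Values are log2 changes by ATRA with CDK4/6i less those without it. The difference was negative, from lowest to highest, in RBFA (-1.73), MRPL12 (-1.14), MRPS26 (-0.94), LRPPRC (-0.94), MRPS25 (-0.89), MRPL24 (-0.82), MRPL3 (-0.76), MRPL36 (-0.75), MRPS2 (-0.69), MRPS34 (-0.68), MTRFR (-0.68), MRPS9 (-0.53), MRPS27 (-0.52), PTCD3 (-0.47), MRPS23 (-0.47), MRPS15 (-0.42), MRPL58 (-0.41), MRPS12 (-0.38), AURKAIP1 (-0.30), GADD45GIP1 (-0.25) and MRPS30 (-0.21). It was positive in MRPS7 (0.21), MRPL44 (0.21), MRPL49 (0.21), DAP3 (0.23), MRPL53 (0.23), MRPS22 (0.25), MRPL52 (0.32), MRPL33 (0.33), MRPS10 (0.44), SLC5A3 (1.89) and MRPS6 (2.06). The negative differences kept their direction when libraries were scaled by their total alone, whereas of the positive ones MRPL44, MRPL49, MRPL52, MRPL53, MRPS7, MRPS22 and DAP3 turned negative on that scale and MRPL33 and MRPS10 lost their call. Of the 9 MRP genes called positive, MRPS6 was the 1 still called on that scale, and 2 MRP genes were called positive with no expression filter.

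In 4 of these genes the call rested on single libraries. That of MRPL44 was lost without replicate 1 or 2 of ATRA, replicate 3 of CDK4/6i, replicate 3 of CDK4/6i+ATRA, or replicate 1 or 2 of the non-treated cells, with values of 0.13 to 0.21. That of MRPL53 was lost without replicate 2 or 3 of ATRA, replicate 2 or 3 of CDK4/6i, replicate 3 of CDK4/6i+ATRA or replicate 2 of the non-treated cells, with values of 0.17 to 0.22. That of MRPL49 was lost without replicate 2 or 3 of CDK4/6i+ATRA or replicate 1 or 2 of the non-treated cells, with values of 0.16 to 0.20. That of MRPS7 was lost without CDK4/6i+ATRA replicate 2 (0.14) or non-treated replicate 1 (0.17).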

How the results depend on the processing

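The number of MRP genes called lower stayed within 1.5 times its value in all alternatives but 1. In the list without genes that overlap another gene, which holds fewer genes by construction, 22 were lower with CDK4/6i, 39 in the combination against no drug, 41 against CDK4/6i and 35 against ATRA. With 1 library left out, the counts ran from 63 to 68 for ATRA, 35 to 38 for CDK4/6i, 61 to 61 for the combination against no drug, 62 to 64 against CDK4/6i, 52 to 55 against ATRA and 38 to 44 for a negative interaction. Replicate numbers did not pair the samples (correlations of -0.07 to 0.03 between same-numbered samples). With a replicate block the counts were 67, 38, 61, 63, 54 and 41 in the same order, and the call of MRPS10 was lost (edgeR adjusted p = 0.051), while no other call of the genes named with values changed in the combination against no drug or in the interaction.

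The median log2 fold change of the large subunit less that of the small one moved more. For CDK4/6i it was -0.14, and -0.16 without overlapping genes, -0.11 without genes on alternate contigs and -0.10 by structure. For the combination against no drug it was -0.11, and -0.080 by structure and -0.079 without MRPS6. Against CDK4/6i it was 0.03, and 0.071 without overlapping genes, and for the interaction 0.05, and 0.10 by structure. With 1 library left out, it ran from 0.031 to 0.15 for ATRA, -0.16 to -0.12 for CDK4/6i, -0.14 to -0.087 for the combination against no drug, -0.0048 to 0.085 against CDK4/6i, -0.25 to -0.18 against ATRA and 0.00081 to 0.075 for the interaction. The value against CDK4/6i turned negative without CDK4/6i+ATRA replicate 1. The cause was not tested.

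Single genes near 0 turned. With libraries scaled by their total alone, the change in the combination against no drug was negative for MRPL10 (-0.032), MRPL28 (-0.20), MRPL44 (-0.14), MRPL45 (-0.14), MRPL52 (-0.24), MRPL54 (-0.26), MRPS10 (-0.16), MRPS18A (-0.22), MRPS33 (-0.24) and MRPS36 (-0.21), and OXA1L (-0.014) turned as well. With no expression filter it was negative for MRPL28 (-0.045), MRPL52 (-0.085), MRPL54 (-0.11), MRPS18A (-0.064), MRPS33 (-0.079) and MRPS36 (-0.048), and the positive share of interaction calls was 37.9%. With 1 library left out, MRPL52 ran from -0.028 to 0.056, MRPL54 from -0.039 to 0.053, MRPS33 from -0.014 to 0.068 and MRPS36 from -0.11 to 0.17. MRPL44 was called higher without CDK4/6i+ATRA replicate 1 or 2 (0.15 and 0.18), and MRPL45 without non-treated replicate 2 (0.19). MRPL41 and MRPS14 were also called lower with no filter, and MRPL10 was not called with no filter. The interaction on library totals was negative for MRPL10 (-0.25), MRPL28 (-0.25), MRPL41 (-0.17), MRPL44 (-0.11), MRPL45 (-0.24), MRPL49 (-0.11), MRPL52 (-0.00090), MRPL53 (-0.087), MRPL54 (-0.16), MRPS14 (-0.16), MRPS7 (-0.11), MRPS22 (-0.071), MRPL11 (-0.19), MRPS18C (-0.15) and DAP3 (-0.093). With no filter it was negative for MRPL10 (-0.020), MRPL28 (-0.018) and MRPL45 (-0.0044). With 1 library left out it ran from -0.11 to 0.053 for MRPS18A, -0.27 to 0.0068 for MRPS36 and -0.11 to 0.0016 for CHCHD1. Depth was lowest in the CDK4/6i+ATRA libraries, which limits the precision of MRP genes with few counts there, such as MRPS26 at 8.80 to 9.81 CPM.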
